A study of Mus musculus with 8 samples.

Results

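The 4 arrays described here hold liver RNA of mice given IL1-beta, the cytokine interleukin-1 beta, and were taken by their titles from a series of 8 arrays. Each spot gives the ratio of the liver channel (Cy5) to a channel of universal mouse reference RNA (Cy3), a commercial mixture of RNA of 11 mouse cell lines. The arrays were Agilent arrays of 2 colours, 2 arrays of female and 2 of male C3H/HeN mice. The animals were 8 weeks old and were injected into the peritoneum with 25 µg/kg of recombinant mouse IL1-beta on alternate days for 2 weeks, and their livers were collected 1 h after the last dose. The other 4 arrays of the series are labelled vehicle controls, 2 per sex, of the same strain and age. They were not subtracted from any value below, so every value sets IL1-beta liver against cultured cells, and a response to the cytokine cannot be told apart from a difference between liver and cell lines. The labels call the arrays of a group biological replicates and do not say whether RNA of several animals was pooled, so p-values measure only the spread between these arrays.

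Hepatocytes, the main cells of the liver, make most proteins of blood plasma, produce bile acids, chemically modify drugs and hormones, turn amino nitrogen into urea and release glucose during fasting. Most of them do not divide in an adult animal. Cells in culture divide without pause, take up glucose for glycolysis and, where they come from connective tissue, make an actin-rich cytoskeleton and collagen. IL1-beta binds the receptor Il1r1 and acts through the adaptor Myd88 on the transcription factor NF-kB, and in liver it is known as an inducer of acute phase plasma proteins, partly through IL-6 and the factor STAT3.

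The ratio was measured for 17453 genes on all 4 arrays, each gene as the mean of its spots. It spanned from 11.68 to -7.65 on the log2 scale, where 1 is a 2-fold difference, 0 an equal signal in both channels and a negative value a stronger signal of the cell lines. In the limma test of the mean of both sexes against 0, 13197 genes passed an adjusted p of 0.05, which is 75.6% of the genes tested. Of these, 5805 (33.3%) were higher and 7392 (42.4%) lower in liver, and the median of all genes was -0.16. The balance of these calls depends on the processing. Centring each array on its median gave 6564 higher and 6531 lower. Reading each gene by its spot of highest ratio gave 6766 higher and 5813 lower. Both shifts were built in, since centring sets each array's median to 0 and the highest spot can only raise a gene's ratio. At least 2-fold differences were called for 3733 genes in favour of liver (21.4%) and 4562 in favour of the pool (26.1%). All 4 arrays lay on one side of 0 for 13813 genes (79.1%), above it for 6079 (34.8%) and below it for 7734 (44.3%). At least 4-fold differences were called for 2023 genes in favour of liver (11.6%) and for 1791 genes in favour of the pool (10.3%). A ratio ranks how far liver exceeded the pool and not how abundant a transcript was. Albumin, Alb, the main protein of plasma, read 5.25 and 4.98 on the female arrays and 5.75 and 5.71 on the male arrays and held rank 426.

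The 4 arrays correlated with each other at r between 0.935 and 0.962 over genes, which are not independent replicates. The lowest r was that of the first female and first male arrays. The second female and first male arrays had 0.962, beside 0.953 within females and 0.962 within males. The medians of the 4 arrays lay between -0.19 and -0.13, and the median SD of a gene over them was 0.28. The arrays labelled control did not share this profile. Their correlation with the mean of the IL1-beta arrays was 0.135 and 0.095 on those labelled female and -0.13 and -0.08 on those labelled male. Among the 58 gene lists described below, the medians of 56 lists lay between -0.85 and 0.99 on the control arrays, those of 3 major urinary proteins between -1.01 and 1.08, and those of the muscle list between -2.51 and 3.20. Xist, a noncoding RNA made in female cells, read -4.94 and -4.57 on the control arrays labelled female and 5.4 and 5.78 on those labelled male, against their labels, so the direction of the control ratios is unsettled. Signals of the single channels were not analysed here, so it is unknown which extreme ratios rest on a spot near background in 1 channel, and no dyes were swapped among these arrays.

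Promoter sequences of 4 of the most extreme genes are shown first, since the sequence features of promoters changed along the ranking. They are the 250 bases before the start in the RefSeq table of build GRCm38.p6, on the gene's strand and 5′ to 3′, and capitals mark the letters of the motifs searched on either strand. Mup6 (chr4:60003231-60003480, + strand) and Fabp1 (chr6:71199629-71199878, + strand) were taken from the 15 highest genes, of which 11 promoters were searched. No more than 2 kinds of motif were found in any of these, 6 promoters held 2 kinds, and the pair shown has the highest ratios of the 6. They are the 2 of the 11 with TATA box letters near the start, so they are not typical of the group. Ncapg (chr5:45669675-45669924, + strand) and Aspn (chr13:49544193-49544442, + strand) were taken in the same way from the 15 lowest genes, of which 12 promoters were searched. Ncapg held 4 kinds of motif, and Aspn had the lowest ratio among 4 promoters with 2 kinds. In both groups, genes without a matched promoter or on a chromosome that was set aside were left out of this choice.
Mup6: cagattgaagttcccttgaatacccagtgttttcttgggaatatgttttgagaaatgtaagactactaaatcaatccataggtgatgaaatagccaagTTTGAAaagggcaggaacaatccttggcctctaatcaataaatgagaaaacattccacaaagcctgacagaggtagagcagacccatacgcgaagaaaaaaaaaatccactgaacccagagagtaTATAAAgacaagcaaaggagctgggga
Fabp1: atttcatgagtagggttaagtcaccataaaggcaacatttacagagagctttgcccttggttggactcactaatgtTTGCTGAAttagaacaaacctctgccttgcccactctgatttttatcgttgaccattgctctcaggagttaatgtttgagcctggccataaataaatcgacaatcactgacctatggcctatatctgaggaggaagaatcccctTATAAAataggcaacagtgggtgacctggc
Ncapg: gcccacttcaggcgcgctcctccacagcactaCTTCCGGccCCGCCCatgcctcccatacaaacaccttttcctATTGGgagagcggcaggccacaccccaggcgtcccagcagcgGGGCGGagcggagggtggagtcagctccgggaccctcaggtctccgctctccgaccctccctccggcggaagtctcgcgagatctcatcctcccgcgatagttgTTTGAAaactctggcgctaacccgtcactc
Aspn: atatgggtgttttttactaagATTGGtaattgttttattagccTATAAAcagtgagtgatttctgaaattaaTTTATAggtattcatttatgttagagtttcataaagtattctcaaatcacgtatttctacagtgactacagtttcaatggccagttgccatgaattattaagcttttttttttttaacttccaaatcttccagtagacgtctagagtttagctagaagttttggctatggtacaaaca
In Mup6 the TATA box letters (TATAAA) begin 27 bases before the start and the CHR letters (TTTGAA) 152 bases before it. In Fabp1 the TATA box letters begin 30 bases before the start, and letters of the C/EBP motif (TTGCNNAA) lie 174 bases before it. Ncapg has CHR letters 30 bases before the start, NF-Y letters (CCAAT) at 176 bases, SP1 letters (GGGCGG) at 209 and 134 bases and ETS letters (CCGGAAG) at 218 bases, and no TATA box letters. Aspn has TATA box letters only far from the start, at 207 and 178 bases, and NF-Y letters at 229 bases. A match of letters is a description of the sequence and not of a bound factor.

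The highest ratio of all belonged to 9130016M20Rik, a transcript name that the RefSeq table lists among the synonyms of A1cf, whose protein guides the editing of apolipoprotein B RNA. It read 11.36 and 11.73 on the female arrays and 11.79 and 11.83 on the male arrays, and the spot annotated to A1cf itself averaged 6.12 ± 0.13 (log2, standard error of the limma fit, n = 4 arrays, as in all such values below). Sucnr1, the receptor for succinate, read 10.10 and 11.56 on the female arrays and 11.63 and 10.63 on the male arrays. Mup6, one of the major urinary proteins, which carry pheromones, read 9.0 and 10.10 on the female arrays and 10.56 and 10.76 on the male arrays, lowest on the first female array. Genes of the Mup family are nearly identical, so a Mup spot may read several of them.

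Fabp1, the fatty acid binding protein of liver, read 8.94 and 9.5 on the female arrays and 9.33 and 10.03 on the male arrays, and its 4 values did not come near 0. The other 11 of the 15 highest genes averaged between 8.65 and 9.27. Most of them modify small molecules. Akr1c6 and Akr1d1 are aldo-keto reductases of steroids and bile acid precursors, Ugt2b5 and Ugt2a3 add glucuronic acid, Sult1d1 adds sulfate, Cyp2c54 is a cytochrome P450, Aadac is a deacetylase of lipids and drugs, and Acot12 splits acetyl-CoA. Ttpa carries vitamin E, Cfi cuts complement proteins and Etnppl breaks down phosphoethanolamine. Akr1d1 read 8.07 and 9.0 on the female arrays and 9.63 and 7.97 on the male arrays, lower on the first female and the second male array.

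Genes of mitosis were among the 15 lowest ratios. Kif18a, a motor protein that positions chromosomes in mitosis, read -6.88 and -7.67 on the female arrays and -7.84 and -8.21 on the male arrays. Bub1, a kinase of the mitotic checkpoint, read -5.95 and -5.98 on the female arrays and -5.91 and -6.41 on the male arrays, and Ncapg, a subunit of the condensin that compacts chromosomes, averaged -5.73 ± 0.15. Esco2, which ties sister chromatids together, averaged -5.70 ± 0.22, with the male array 1 apart from the other 3.

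Other genes among the 15 lowest were Aspn, a small proteoglycan of cartilage and other connective tissue (-6.54 ± 0.14), Jag2, a ligand of Notch receptors (-5.90 ± 0.12), and the transcription regulators Bnc1, Foxd1, Zfp503 and Vgll3 (-6.55, -6.29, -6.25 and -6.14). The 2 spots of Foxd1 differed widely, at -7.81 and -4.77. Npy5r, a receptor of neuropeptide Y, and the protocadherin Pcdhb22 were also in this group, at -6.06 ± 0.15 and -5.93 ± 0.11.

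**Figure D1:**
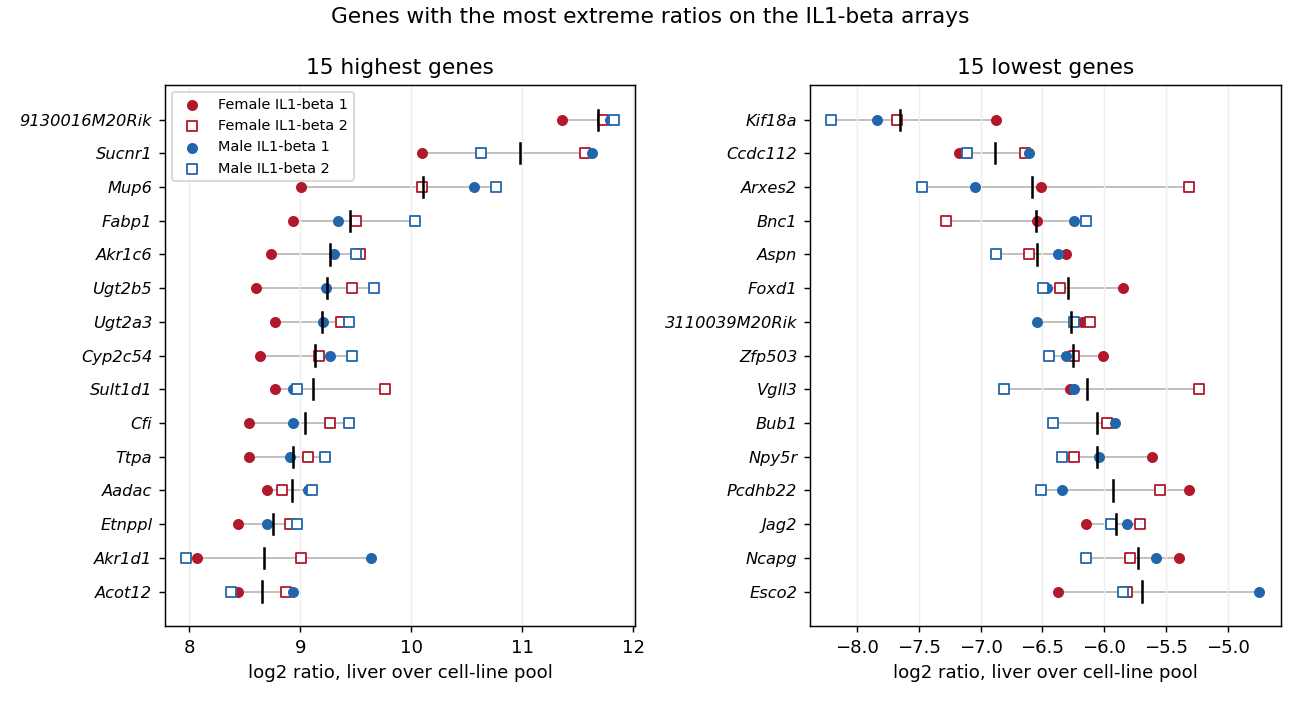
Log2 ratio of liver over the cell-line pool for the 15 highest genes (left) and the 15 lowest genes (right) on each IL1-beta array, with red for females, blue for males, filled circles for array 1, open squares for array 2 and a black bar for the mean. All 4 arrays of every gene lie far from 0, above 7.9 on the left and below -4.7 on the right.

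Each function below is a list of genes, described by how many of its measured members passed the limma test in each direction and by the median of their mean ratios, beside 33.3% higher, 42.4% lower and a median of -0.16 over all genes. Of the 58 lists, 33 had a median above 0 and 20 a median below 0 on all 4 arrays, and 5 lay on both sides. The lists were written by function and do not cover all genes, and 51 genes stand on more than 1 list.

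Secreted plasma proteins were among the lists with the highest medians. All 18 measured carrier proteins of plasma were higher than the pool, with a median of 6.07, and 17 of them were among the 5% of genes with the highest ratios, a limit of 3.93. Ambp, the precursor of a plasma protease inhibitor, averaged 8.23 ± 0.21. Rbp4, which carries vitamin A, read 7.94 and 7.84 on the female arrays and 7.84 and 8.44 on the male arrays. Hpx, which binds haem, averaged 7.87 ± 0.13, and Ttr, which carries thyroid hormone, 6.30 ± 0.12. The lowest of this list was Itih4 at 3.70 ± 0.10.

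All 15 measured apolipoproteins and lipoprotein enzymes were higher too, with a median of 5.99 and a lowest value of 5.03 ± 0.12 for Lcat, which esterifies cholesterol in plasma. Apof was the highest of them at 8.52 ± 0.15, and Apob, the backbone of very low density lipoprotein, averaged 6.89 ± 0.11. All 3 measured major urinary proteins were higher, with Mup5 at 8.33 ± 0.18 and Mup3 at 6.07 ± 0.14. Of the liver serpins, inhibitors of proteases, 6 of 6 were higher, led by Serpina12 (7.20 ± 0.12) and Serpina1b (6.72 ± 0.13). The Serpina1 genes are near-identical copies, and their separate values are uncertain.

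Coagulation and complement followed. Of 28 coagulation genes, 24 were higher and 4 lower, with a median of 5.75. F13b, a subunit of the factor that cross-links fibrin, averaged 8.49 ± 0.13, and the fibrinogen chains Fgg, Fgb and Fga averaged 8.31, 7.02 and 6.78. The 4 lower genes were Plau (-3.36 ± 0.21), Thbd (-2.54 ± 0.20), Plat (-2.22 ± 0.11) and F3 (-2.20 ± 0.11). They encode urokinase, thrombomodulin, tissue plasminogen activator and tissue factor, which are best known from cells other than hepatocytes.

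All 23 measured complement genes were higher, with a median of 5.33. Cfi averaged 9.04 ± 0.17, and C9 and C8a, parts of the pore that complement makes in membranes, averaged 7.72 ± 0.12 and 6.92 ± 0.11. The C1q chains, made mainly by macrophages, averaged 5.16 ± 0.14 for C1qa, 5.04 ± 0.12 for C1qc and 2.14 ± 0.14 for C1qb, and the lowest of the list was Cfp, properdin, at 1.51 ± 0.12.

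Enzymes that modify drugs, steroids and fatty acids came next. Of 53 cytochromes P450, 47 were higher and 4 lower than the pool, with a median of 5.32, and 39 were among the highest 5% of genes. Cyp2c54 read 8.64 and 9.17 on the female arrays and 9.27 and 9.47 on the male arrays, and Cyp3a16 averaged 8.05 ± 0.12. Spots of the Cyp3a genes are hard to keep apart, and the spots of Cyp3a44 differed from 5.69 to 9.04. Cyp7a1, the rate-limiting enzyme of bile acid synthesis, read 5.80 and 6.54 on the female arrays and 5.90 and 5.56 on the male arrays.

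The 4 lower members were Cyp2s1 (-3.54 ± 0.20), Cyp1b1 (-2.36 ± 0.18), Cyp20a1 (-0.81 ± 0.25) and Cyp2c55 (-0.56 ± 0.15). Cyp1b1, an enzyme of oestrogen oxidation that is best known outside the liver, read -2.06 and -2.29 on the female arrays and -2.08 and -3.0 on the male arrays. Its relatives Cyp1a2 and Cyp1a1 averaged 4.89 ± 0.10 and 1.26 ± 0.14. Within the CYP1 family the ratio to the pool therefore ran in both directions.

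Of 51 conjugating enzymes, 47 were higher and 2 lower, with a median of 4.91. The glucuronosyltransferases Ugt2b5 and Ugt2b1 averaged 9.24 ± 0.18 and 8.40 ± 0.16, the carboxylesterase Ces1d 8.37 ± 0.13 and the sulfotransferase Sult1b1 8.26 ± 0.13. The glutathione transferases Gstp1 and Gsta4 averaged 2.49 ± 0.14 and 1.39 ± 0.13, and Gsto1, lower than the pool, -0.41 ± 0.12. Sult2b1, a sulfotransferase of skin, averaged -0.69 ± 0.15.

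**Figure D2:**
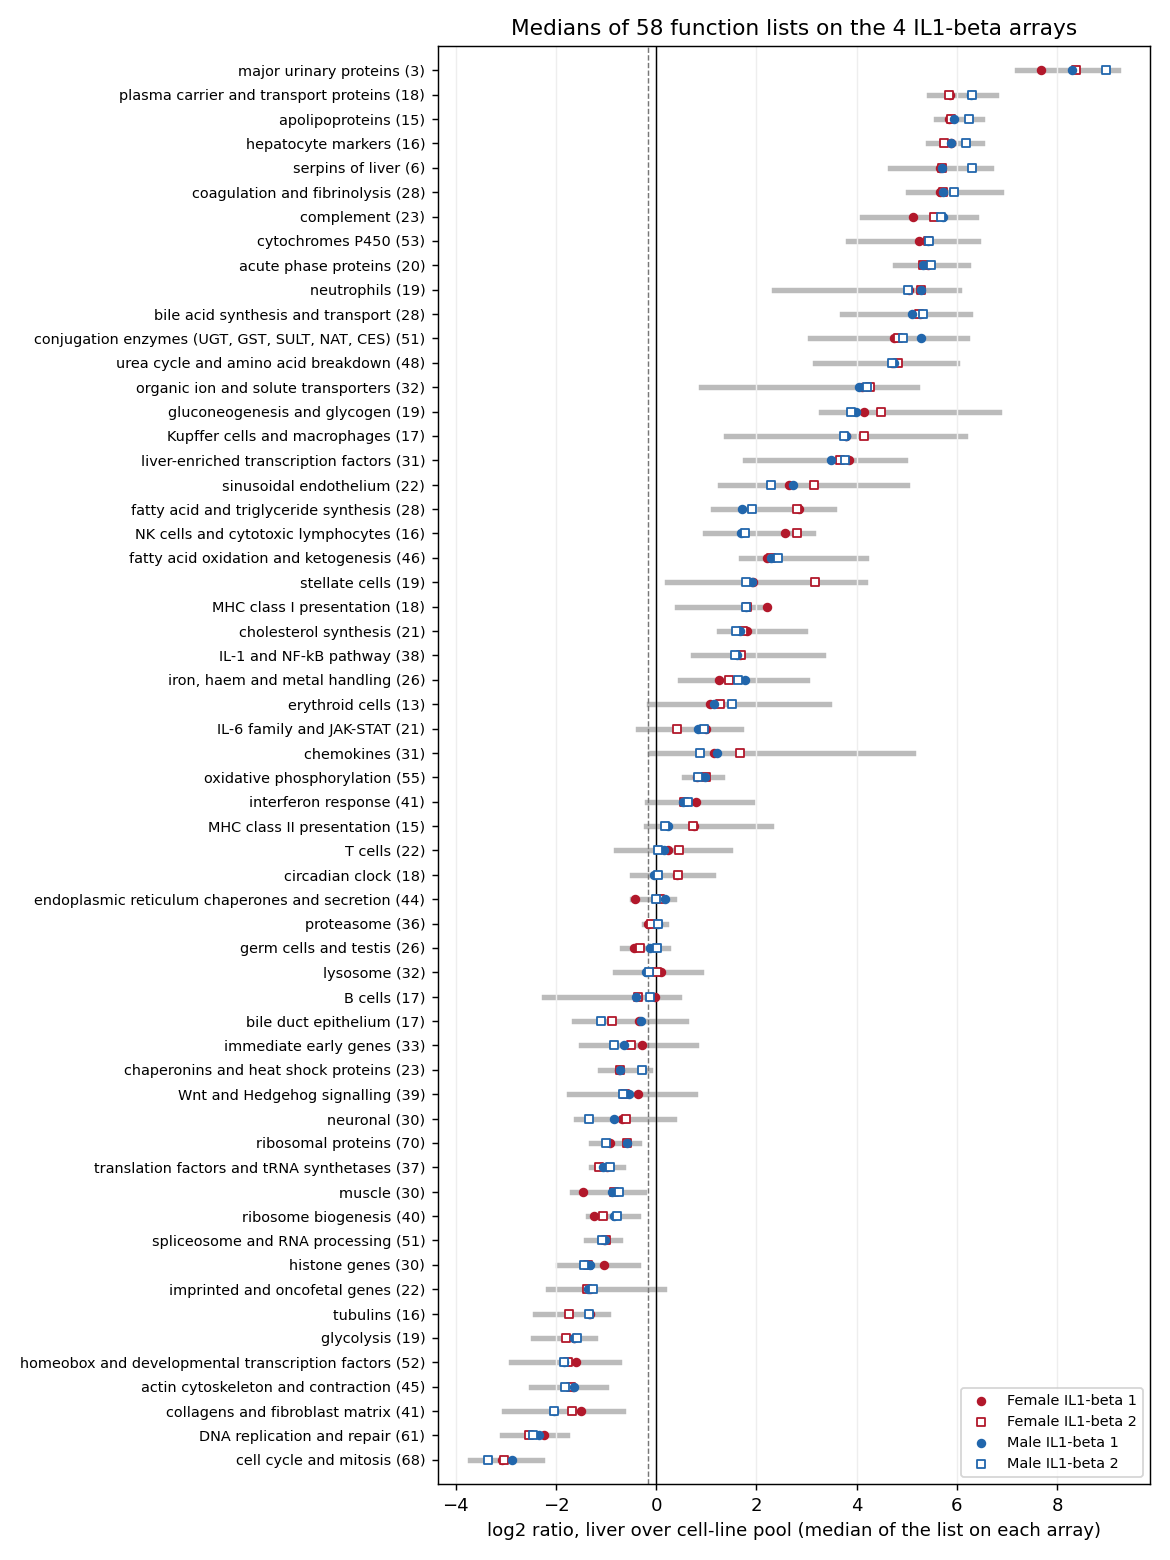
Median log2 ratio of liver over the pool for each of 58 gene lists on each IL1-beta array (points), with a grey bar from the lower to the upper quartile of the members' mean ratios, the number of measured members in brackets, a solid line at 0 and a dashed line at the median of all genes, -0.16. Plasma carriers, apolipoproteins and P450 enzymes lie above 5 and cell cycle and replication genes below -2 on every array.

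Of 48 genes of the urea cycle and amino acid breakdown, 43 were higher, with a list median of 4.75. Otc, an enzyme of the urea cycle, read 6.37 and 6.93 on the female arrays and 7.08 and 7.19 on the male arrays. Aass, which starts lysine breakdown, averaged 7.16 ± 0.12, and Tdo2 and Hpd, enzymes of tryptophan and tyrosine breakdown, averaged 6.46 ± 0.11 and 6.11 ± 0.10. The 5 lower genes were Psat1 (-4.45 ± 0.12), Asns (-4.30 ± 0.10), Phgdh (-3.34 ± 0.12), Acmsd (-0.87 ± 0.12) and Shmt2 (-0.30 ± 0.10). Psat1 and Phgdh make serine and Asns makes asparagine. Asns read -5.08 and -5.08 on the female arrays and -3.49 and -3.55 on the male arrays, lower in the females than in the males, a difference that did not pass the test of the sexes.

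Of 19 genes of gluconeogenesis and glycogen, 17 were higher and none lower, with a median of 3.99. Pck1, which commits carbon to glucose synthesis, read 7.41 and 7.77 on the female arrays and 7.51 and 8.27 on the male arrays. Fbp1, a later enzyme of that pathway, averaged 7.29 ± 0.15. G6pc, which frees glucose for the blood, read 4.82 and 4.78 on the female arrays and 3.52 and 2.50 on the male arrays, with both females above both males, a difference that did not pass the test of the sexes.

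Glycolysis lay on the other side. Of 19 genes 17 were lower and 1 higher than the pool, with a median of -1.61. Eno2, an enolase of neurons, averaged -3.16 ± 0.12, Pfkp, the platelet form of phosphofructokinase, -2.83 ± 0.12, and Gapdh -1.31 ± 0.19. The 1 higher gene was Pfkfb3, which makes an activator of phosphofructokinase and is known to be inducible, and it read 4.56 and 3.88 on the female arrays and 4.33 and 4.82 on the male arrays.

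Liver uses its own form of several enzymes and carriers. Of 17 pairs of such forms or of related genes, among them the growth factors Igf1 and Igf2, 10 had both genes measured. The pairs were written from textbook knowledge. In 7 of these 10 the form or relative known from adult liver was higher and the other lower than the pool, and in 2 both were higher. The remaining pair was subunit 7a of cytochrome oxidase, where Cox7a1 did not pass, at -0.02 ± 0.14, and Cox7a2 averaged 1.44 ± 0.23. Pyruvate kinase of liver, Pklr, read 4.19 and 4.48 on the female arrays and 3.99 and 3.75 on the male arrays, and the form of muscle and growing cells, Pkm, read -2.61 and -2.89 on the female arrays and -2.56 and -2.80 on the male arrays.

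The liver glucose transporter Slc2a2 averaged 6.94 ± 0.11, with spots at 5.41 and 8.48, and the widespread transporter Slc2a1 averaged -4.24 ± 0.15. Glycogen synthase of liver, Gys2, averaged 7.08 ± 0.13 and that of muscle, Gys1, -1.95 ± 0.13. Glycogen phosphorylase of liver, Pygl, averaged 5.75 ± 0.11 and that of brain, Pygb, -2.20 ± 0.14. In each of these pairs no array of the liver form overlapped with an array of the other form.

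The desaturase Scd1 read 5.41 and 4.88 on the female arrays and 4.22 and 3.85 on the male arrays, and Scd2, its relative of brain and fetal tissue, read -4.75 and -5.65 on the female arrays and -5.71 and -6.18 on the male arrays. The growth factors Igf1 and Igf2, the first made by adult liver and the second by fetal tissue, averaged 5.03 ± 0.11 and -2.38 ± 0.11. The carnitine palmitoyltransferases Cpt1a and Cpt1c, the second known from brain, averaged 2.16 ± 0.11 and -2.19 ± 0.11. The 2 pairs with both forms higher were Fabp1 and Fabp5 (9.45 ± 0.18 and 2.11 ± 0.14) and the acetyl-CoA carboxylases Acacb and Acaca (2.17 ± 0.12 and 1.43 ± 0.14).

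Lipid metabolism was higher in most of its genes, at smaller ratios. Of 46 genes of fatty acid oxidation and ketone synthesis 42 were higher and 2 lower, with a median of 2.33. The acyl-CoA synthetase Acsm3 averaged 7.23 ± 0.13, and Phyh, which starts the oxidation of branched fatty acids, 6.58 ± 0.11. The 2 lower genes were Oxct1, which other tissues use to burn ketone bodies, at -3.37 ± 0.11, and the hormone Fgf21 at -1.63 ± 0.15.

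Of 28 genes of fatty acid and triglyceride synthesis 22 were higher and 2 lower. The list's median was 2.84 and 2.82 on the female arrays and 1.72 and 1.90 on the male arrays, and the sexes did not overlap. Elovl2, an elongase of polyunsaturated fatty acids, averaged 7.11 ± 0.13, and Dgat2, which makes triglyceride, 5.69 ± 0.11. Fasn, fatty acid synthase, read 3.80 and 3.61 on the female arrays and 1.60 and 2.12 on the male arrays, and Elovl3, an elongase known to be higher in male mouse liver, read 3.62 and 2.50 on the female arrays and 5.45 and 5.75 on the male arrays. Fasn was higher in the females and Elovl3 in the males on all arrays, and neither difference passed the test of the sexes.

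Of 21 genes of cholesterol synthesis 20 were higher, with a median of 1.73, led by Tm7sf2, a sterol reductase, at 4.67 ± 0.10 and Idi1 at 3.62 ± 0.11. Srebf2, the transcription factor that drives this pathway, was lower, at -1.04 ± 0.10. Of 28 genes of bile acid synthesis and transport 27 were higher and none lower, with a median of 5.13. Baat, which joins bile acids to amino acids, averaged 7.74 ± 0.13, and Slco1a1 and Abcc2, an uptake and an export carrier, averaged 7.95 ± 0.15 and 6.61 ± 0.11.

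Of 32 other carriers of ions and solutes 25 were higher and 5 lower, with a median of 4.2. Slc16a12, a carrier of creatine, averaged 7.39 ± 0.19, and Slc17a1, a phosphate and urate carrier, 7.18 ± 0.12. The lower ones were amino acid carriers of growing cells, Slc1a5 (-2.60 ± 0.14), Slc7a5 (-2.46 ± 0.12), Slc3a2 (-1.86 ± 0.11) and Slc7a11 (-1.44 ± 0.17), and the kidney carrier Slc22a2 (-1.89 ± 0.10). The spot of Slc7a11 with the highest ratio gave 0.94.

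Oxidative phosphorylation showed a small and even excess. Of 55 subunits 47 were higher and 1 lower, the median was 0.86, and the lower and upper quartiles of the members were 0.56 and 1.31. Ndufa4 was the highest at 2.56 ± 0.32, and the lower gene was Atp5g2 at -0.64 ± 0.10, whose relative Atp5g3 averaged 1.68 ± 0.10. None of these genes was among the highest 5% of all genes.

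Of 31 transcription factors known for their role in liver 27 were higher and 2 lower, with a median of 3.83. Nr5a2, a nuclear receptor of bile acid and cholesterol genes, read 6.84 and 6.64 on the female arrays and 6.74 and 7.08 on the male arrays. Foxa3 averaged 6.14 ± 0.13, Nr1i2, a sensor of foreign compounds, 5.88 ± 0.13, and Nr1h4, the bile acid receptor, 5.52 ± 0.12. Hnf4a, a master regulator of hepatocyte genes, averaged 4.02 ± 0.11, and its 3 spots differed from 0.33 to 6.05. The lower ones were Tbx3 (-1.06 ± 0.14) and Esrra (-0.61 ± 0.12), whose spot of highest ratio gave 0.16.

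Acute phase proteins, which liver releases into plasma during inflammation, were higher in 20 of 20 measured genes, with a median of 5.28. The list medians were 5.43 and 5.32 on the female arrays and 5.33 and 5.48 on the male arrays. Crp, a protein that binds bacterial surfaces, read 7.87 and 8.80 on the female arrays and 8.80 and 8.90 on the male arrays. The orosomucoids Orm1 and Orm2 averaged 7.22 ± 0.13 and 6.80 ± 0.12, and Steap4, a metalloreductase, 6.93 ± 0.12.

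Serum amyloid A1, Saa1, read 5.51 and 5.25 on the female arrays and 5.78 and 5.96 on the male arrays, and Saa2 averaged 5.95 ± 0.14. Hamp, the iron hormone hepcidin, averaged 5.28 ± 0.10, and Lcn2, which binds bacterial iron carriers, 4.64 ± 0.11. Cd14, a receptor for bacterial lipopolysaccharide, was the lowest of the list at 1.84 ± 0.11. The medians of acute phase proteins lay close to those of plasma carriers and P450 enzymes, and a part of the ratio that belongs to IL1-beta cannot be told apart here.

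In the list of IL-1 and NF-kB genes 31 of 38 were higher and 2 lower, with a median of 1.59. The transcript of Il1b itself read 5.98 and 6.53 on the female arrays and 6.38 and 5.89 on the male arrays, by 10 spots that averaged between 6.15 and 6.23. Il1a averaged 5.09 ± 0.27, and Il1rn, the natural antagonist of the receptor, read 5.05 and 4.88 on the female arrays and 5.03 and 5.27 on the male arrays. Il1r2, a decoy receptor of neutrophils and other cells, averaged 6.07 ± 0.17. The signalling receptor Il1r1 read 0.73 and 0.26 on the female arrays and 1.49 and 2.39 on the male arrays. Il1r1 was lower in both females than in both males, a difference that did not pass the test of the sexes.

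Sele and Icam1, adhesion molecules of activated endothelium, averaged 6.06 ± 0.19 and 5.43 ± 0.11. The feedback inhibitors Tnfaip3 and Nfkbia averaged 4.11 ± 0.12 and 2.76 ± 0.21, and Myd88 1.00 ± 0.12. The lower genes were Tab1, a partner of the kinase TAK1 (-2.74 ± 0.11), and the alarmin Il33 (-0.95 ± 0.13). Il6 averaged 1.84 ± 0.17 and Tnf 1.71 ± 0.14.

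Of 21 genes of the IL-6 family and JAK-STAT signalling 14 were higher and 6 lower, with a median of 0.88. Cish and Socs1, inhibitors of cytokine signalling, averaged 4.52 ± 0.13 and 3.28 ± 0.13, and Socs3 and Stat3 1.80 ± 0.17 and 1.26 ± 0.27. Stat4 (-2.32 ± 0.11) and the oncostatin receptor Osmr (-1.54 ± 0.14) were the lowest.

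Chemokines were spread widely. Of 31 genes 18 were higher and 7 lower, and the median was 0.87. Cxcl2, which attracts neutrophils, read 7.24 and 7.71 on the female arrays and 8.14 and 7.14 on the male arrays. Cxcl10, which attracts T cells, read 7.21 and 7.47 on the female arrays and 6.41 and 7.18 on the male arrays, and Ccl20 averaged 6.69 ± 0.12. Pf4, a product of platelets, and Ccl3, a product of macrophages, were lower than the pool at -2.79 ± 0.19 and -2.49 ± 0.13.

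Interferon-response genes lay on both sides of the pool. Of 41 genes 24 were higher and 9 lower, with a median of 0.63. The GTPase Iigp1, which attacks parasites inside cells, read 7.01 and 7.18 on the female arrays and 7.11 and 7.64 on the male arrays, and the guanylate-binding proteins Gbp6 and Gbp5 averaged 5.86 ± 0.13 and 4.56 ± 0.34. Among antiviral proteins, Mx2 was higher at 4.42 ± 0.19. Ifit2, Oas2, Oasl2 and Oasl1 were lower at -1.78, -1.64, -1.58 and -1.30.

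Immediate early genes, which cells switch on within minutes of a stimulus, had counts not far from those of all genes. Of 33 genes 10 were higher (30.3%) and 18 lower (54.5%), beside 33.3% and 42.4% of all genes, with a median of -0.58, and 7 were among the 5% of genes with the lowest ratios, a limit of -2.72. Fos read -3.83 and -3.93 on the female arrays and -4.81 and -4.73 on the male arrays, by 10 spots between -4.37 and -4.30. Ccn2 and Ccn1, matrix proteins of the YAP pathway, averaged -4.29 ± 0.12 and -3.92 ± 0.12, and Egr1 -2.93 ± 0.18. Gadd45g and Gadd45b, stress genes, were the highest at 2.95 ± 0.20 and 2.10 ± 0.21.

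**Figure D3:**
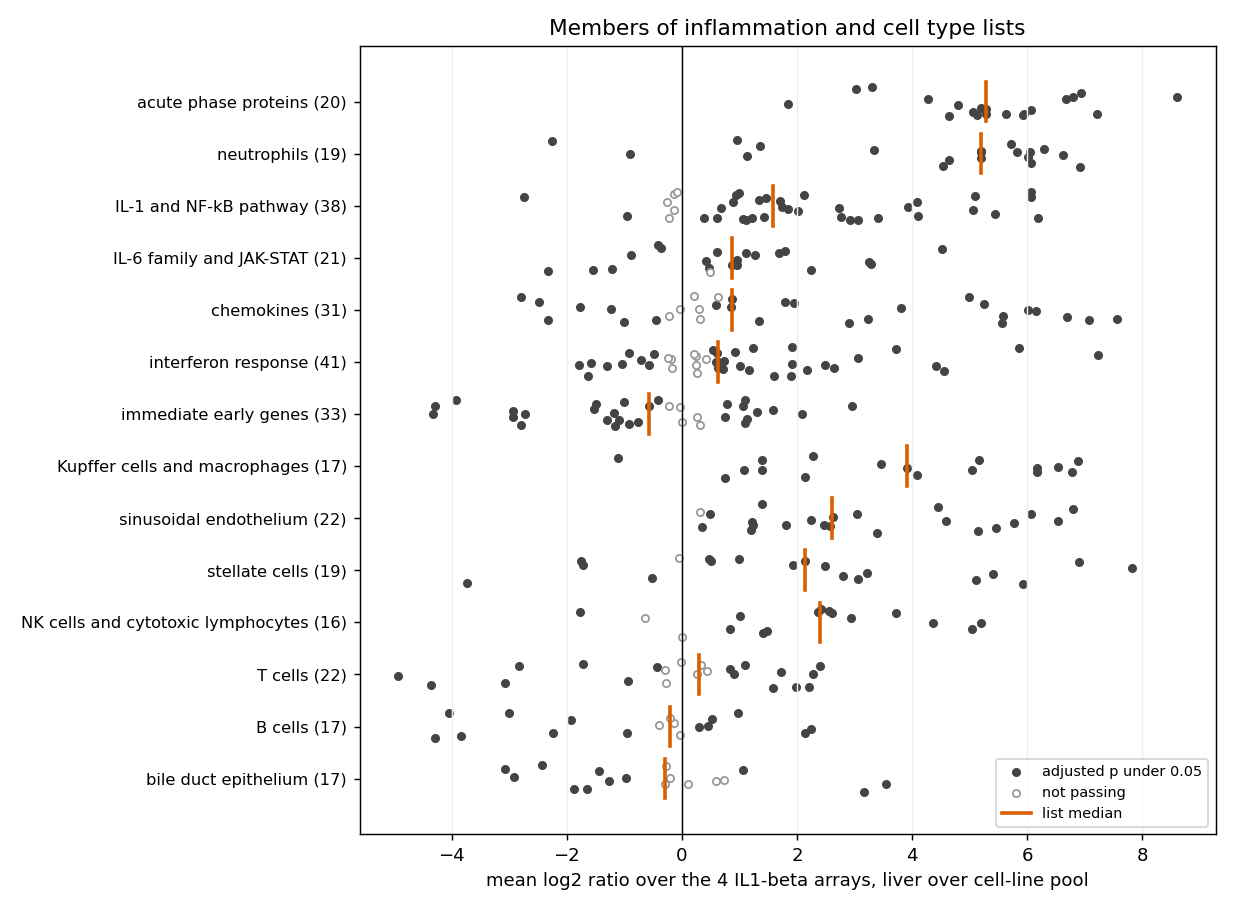
Mean log2 ratio over the 4 IL1-beta arrays of every measured member (points, number in brackets) of 14 lists of inflammation genes and cell type markers, filled where the limma test passed, with the list median in orange. Most acute phase and neutrophil genes lie far above 0, chemokines reach from -2.79 to 7.56, and markers of T cells, B cells and bile ducts lie on both sides of 0.

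The labelled tissue was checked against markers of its cells. All 16 measured hepatocyte markers were higher than the pool, with medians of 5.88 and 5.75 on the female arrays and 5.88 and 6.17 on the male arrays. In bulk RNA such as this, fewer cells of a type and less RNA per cell cannot be told apart, and the makeup of the pool sets the other side of each ratio. Of 17 markers of Kupffer cells, the resident macrophages of liver, and of other macrophages, 16 were higher and 1 lower, with a median of 3.91. Cd5l read 6.84 and 6.84 on the female arrays and 7.14 and 6.71 on the male arrays, Timd4 averaged 6.79 ± 0.20 and Clec4f, a lectin known from Kupffer cells, 6.54 ± 0.10. Adgre1, the antigen F4/80, was the lower one and read -1.58 and -0.84 on the female arrays and -0.38 and -1.62 on the male arrays.

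Of 22 markers of sinusoidal endothelium 21 were higher and none lower, with a median of 2.60. Lyve1, a receptor for hyaluronan, averaged 6.80 ± 0.14, and Cdh5, the cadherin of endothelium, 6.53 ± 0.22. Of 19 stellate cell markers 14 were higher and 4 lower, with a median of 2.14. Lrat, which stores vitamin A, read 7.42 and 7.31 on the female arrays and 7.26 and 5.58 on the male arrays, low on the male array 2, and Colec10 averaged 7.82 ± 0.32. Pdgfra and Pdgfrb, receptors that connective tissue cells share, were lower at -3.73 ± 0.11 and -1.75 ± 0.12, and Des, a filament of muscle and stellate cells, at -1.72 ± 0.17.

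Of 19 neutrophil markers 17 were higher and 2 lower, with a median of 5.20. S100a9, a subunit of the protein calprotectin, read 6.84 and 6.81 on the female arrays and 6.91 and 7.11 on the male arrays, and Retnlg and the granule protein Camp averaged 6.62 ± 0.12 and 6.30 ± 0.14. Mpo, Prtn3 and Ctsg, made by neutrophil precursors in marrow, averaged 1.13 ± 0.12, 0.96 ± 0.12 and 1.37 ± 0.11. Chil3 was lower and read -2.12 and -2.38 on the female arrays and -2.49 and -2.04 on the male arrays, and Mmp9 averaged -0.90 ± 0.26. Of 16 markers of NK cells and cytotoxic lymphocytes 13 were higher and 1 lower, with list medians of 2.58 and 2.81 on the female arrays and 1.69 and 1.77 on the male arrays. Xcl1, a chemokine of NK cells, averaged 5.20 ± 0.22, and Gzmb, a granule protease, 4.36 ± 0.13.

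Markers of B and T cells gave no common direction. Of 22 T cell markers 9 were higher and 7 lower, from Il7r at 2.40 ± 0.17 to Cd28 at -4.92 ± 0.12 and Gata3 at -4.35 ± 0.16. Of 17 B cell markers 6 were higher and 7 lower, with Bank1 at 2.24 ± 0.19 and Pou2af1 and Cd79b at -4.29 ± 0.12 and -4.04 ± 0.12. Of 17 markers of bile duct epithelium 3 were higher and 8 lower. Epcam and Krt19, which mark bile ducts in liver and epithelia elsewhere, averaged -3.07 ± 0.11 and -2.92 ± 0.11, and Prom1 3.55 ± 0.19. Of 13 red cell markers 8 were higher and 3 lower, with Alas2, which starts haem synthesis in red cell precursors, at 6.21 ± 0.13 and the globin Hba-a1 at 5.02 ± 0.11.

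In antigen presentation, 13 of 18 class I genes were higher and 2 lower, with a median of 1.88. Cd1d1, which presents lipids, averaged 5.36 ± 0.13, H2-Q10, a class I protein secreted by liver, 4.11 ± 0.11, and the common light chain B2m 2.02 ± 0.16. Of 15 class II genes 8 were higher and 3 lower, with H2-Aa at 4.11 ± 0.11, H2-Ab1 at 2.49 ± 0.11 and Cd74, which did not pass, at -0.15 ± 0.12. Among 26 genes of iron and metal handling 20 were higher and 2 lower, from Tfr2, the iron sensor of hepatocytes, at 6.62 ± 0.13 to Tfrc, the transferrin receptor of growing cells, at -1.18 ± 0.31.

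Lists of protein turnover and secretion had medians near 0. Of 36 proteasome genes 5 were higher and 6 lower, with a median of -0.08, and Psmb9 and Psmb10, subunits of the immunoproteasome, were the highest at 1.16 ± 0.11 and 0.98 ± 0.15. Of 44 genes of the endoplasmic reticulum 10 were higher and 12 lower, with a median of -0.02. Herpud1 and Dnajc3 averaged 2.79 ± 0.13 and 2.28 ± 0.10, and Ddit3 and Atf4, factors of the stress response, -2.01 ± 0.10 and -1.43 ± 0.11. Of 32 lysosome genes 13 were higher and 14 lower, with the protease Ctsh at 5.51 ± 0.11 and Npc2, which moves cholesterol, at -1.67 ± 0.12. The signs of these 3 medians and of that of 26 germ cell genes (-0.08) turned when the array medians were centred, since the median of all genes lay at -0.16.

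Of 18 clock genes 9 were higher and 6 lower, with a median of 0.23. Hlf averaged 3.42 ± 0.11 and Arntl, the activator of the clock, -2.25 ± 0.14. Of 39 genes of Wnt and Hedgehog signalling 12 were higher and 19 lower, with a median of -0.73, which was 0.12 when each gene was read by its spot of highest ratio. Wnt2, a ligand made by liver endothelium, and Lgr5, a receptor of hepatocytes around the central vein, averaged 4.73 ± 0.19 and 4.37 ± 0.16, against -3.97 ± 0.11 for Sfrp2 and -3.58 ± 0.12 for Lef1.

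Cell division gave the lowest list of all. All 68 measured genes of the cell cycle and mitosis were lower in liver than in the pool, with medians of -3.08 and -3.05 on the female arrays and -2.88 and -3.35 on the male arrays. Of them, 42 were among the 5% of genes with the lowest ratios. Mki67, the Ki-67 antigen of dividing cells, read -4.07 and -4.55 on the female arrays and -4.53 and -4.58 on the male arrays. Cenph and Cenpe, proteins of the kinetochore, averaged -5.07 ± 0.12 and -5.00 ± 0.12, and Spc24 was nearest to 0 at -0.50 ± 0.11. Cdk1, the kinase that starts mitosis, averaged -1.22 ± 0.11.

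Of 61 genes of DNA replication and repair 60 were lower and 1 higher, with a median of -2.36. Hells, a chromatin remodeller, read -4.62 and -5.02 on the female arrays and -4.78 and -4.98 on the male arrays, and Rrm2, which makes deoxynucleotides, and Uhrf1, which copies DNA methylation, averaged -4.34 ± 0.15 and -4.11 ± 0.16. The subunits Mcm2 to Mcm7 of the replicative helicase lay between -3.52 and -1.79, the second for Mcm4, whose spot of highest ratio gave 0.25. Mcm10 alone was higher and read 0.39 and 0.96 on the female arrays and 2.00 and 1.70 on the male arrays, by 1 spot.

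Histone genes were lower in 22 of 30, higher in 6, with a median of -1.36. The linker histone H1f5 averaged -3.54 ± 0.12 and H2ac15 -3.35 ± 0.13. H2bc4 was higher, at 3.25 ± 0.10, and read 3.29 and 3.28 on the female arrays and 3.25 and 3.19 on the male arrays. Histone copies of a cluster are similar in sequence, so spots may read more than 1 of them.

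Genes that make proteins were lower by less. Of 70 ribosomal proteins 48 were lower and 1 higher, with a median of -0.77 and list medians between -1.01 and -0.57 on the 4 arrays. Rpl14 averaged -3.30 ± 0.12, and Rps6, whose 2 spots gave -4.49 and -0.87, -2.68 ± 0.12. The higher one was Rps29 at 0.37 ± 0.12. Pseudogenes of ribosomal proteins are many, and a spot may read their transcripts.

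Of 40 genes of ribosome assembly 30 were lower and none higher, with a median of -1.03, and the nucleolar proteins Npm1 and Ncl averaged -2.50 ± 0.10 and -2.13 ± 0.22. Of 37 translation factors and tRNA synthetases 34 were lower and 1 higher, with a median of -0.95. Gars, which charges glycine, averaged -2.23 ± 0.12, and the 1 higher gene, Eif5, 0.49 ± 0.13. Of 51 splicing genes 41 were lower and none higher, with list medians between -1.09 and -1.01 on the 4 arrays. Hnrnpa1 averaged -2.20 ± 0.12. Of 23 chaperonins and heat shock proteins 14 were lower and 2 higher, with Cct6a at -1.79 ± 0.19 and Hspb8 at 2.23 ± 0.10.

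Most genes of the cytoskeleton and matrix of connective tissue cells were lower. Of 45 actin cytoskeleton genes 36 were lower and 2 higher, with a median of -1.74. Vim, the filament of mesenchymal cells, read -3.64 and -3.89 on the female arrays and -4.05 and -4.22 on the male arrays, and Anxa1, S100a6 and Lgals1 averaged -4.02, -3.94 and -3.88. The higher ones were Myh11, the myosin of smooth muscle, at 2.82 ± 0.19 and Vil1, which lines microvilli, at 2.64 ± 0.19. Of 16 tubulin genes 14 were lower and none higher, with Tuba1a at -4.79 ± 0.12.

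Of 41 collagens and matrix genes 31 were lower and 6 higher, with a median of -1.76. Col1a1, the main collagen of connective tissue, read -3.90 and -4.52 on the female arrays and -4.41 and -4.36 on the male arrays, and the matrix protease Mmp3 and the collagen cross-linker Lox averaged -5.50 ± 0.19 and -4.84 ± 0.12. Col14a1 was higher and read 5.41 and 5.12 on the female arrays and 4.72 and 4.05 on the male arrays, and Col18a1, a collagen of basement membranes that liver is known to make, averaged 3.60 ± 0.18.

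Of 52 homeobox and developmental transcription factors 41 were lower and 4 higher, with a median of -1.62. Hoxa11 read -5.58 and -5.75 on the female arrays and -5.25 and -5.25 on the male arrays, and Hoxc9, Pax3 and Twist2 averaged -5.36 ± 0.13, -4.34 ± 0.12 and -4.27 ± 0.10. Hoxd13, a gene of limb ends and genital tissue, was higher and read 3.36 and 3.42 on the female arrays and 3.42 and 3.23 on the male arrays, by 1 spot. Of 22 imprinted and oncofetal genes 13 were lower and 4 higher. Igf2bp3, an RNA-binding protein of fetal tissue and tumours, averaged -3.79 ± 0.13, Dlk1 -2.96 ± 0.11 and Afp, the fetal counterpart of albumin, -1.52 ± 0.11. Gpc3, a proteoglycan known as a marker of liver tumours, was higher and read 4.75 and 6.21 on the female arrays and 4.72 and 5.22 on the male arrays.

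The muscle and neuronal lists had medians of -0.98 and -0.75. Of 30 muscle genes 19 were lower and 5 higher, with the lowest value for Trim63, a ubiquitin ligase, at -4.20 ± 0.31, and Neb at 3.69 ± 0.24. Of 30 neuronal genes 16 were lower and 6 higher, with Elavl2 at -4.50 ± 0.29, and Ddc, which liver shares with neurons, at 4.01 ± 0.16. Of 26 germ cell genes, whose median was near 0 as given above, 8 were lower and 4 higher, with Rhox5 at -4.15 ± 0.12.

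Promoter sequences were compared along the ranking as a description, with no test. RefSeq promoters, 250 bases before to 50 after the start, were matched for 14005 of the 17453 genes, which were divided into deciles by mean ratio. A CpG observed over expected ratio of 0.6 or more was found in 28.7% of promoters in the highest decile, whose median ratio was 3.87, in 58.7% in the lowest decile and in 57.1% of all matched promoters. TATA box letters that began 45 to 20 bases before the start, as in Mup6 and Fabp1 above, were found in 4.93% of the highest decile, against 2.54% of all. The lowest decile had 2.64%, so the highest decile had fewer CpG-rich promoters and more with a TATA box in place. Single lists did not all follow this. The TATA share was 20.9% of 43 P450 promoters and 0% of complement, coagulation and serpin promoters, all lists above the pool. It was 38.5% of 26 histone promoters, a list below the pool.

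Motifs of liver factors were searched on both strands over the same window. Letters of the HNF1 motif were found in 2.14% of promoters in the highest decile and in 0.371% of all, those of HNF4 (CAAAGTCCA) in 1.29% and 0.471%, and those of C/EBP in 15% and 9.21%. ETS letters were found in 4.21% of the highest decile, against 13.9% of all, and SP1 letters in 38.1%, against 53.7%. Both motifs contain a CpG. Motifs were counted one by one, and their letters may overlap.

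**Figure D4:**
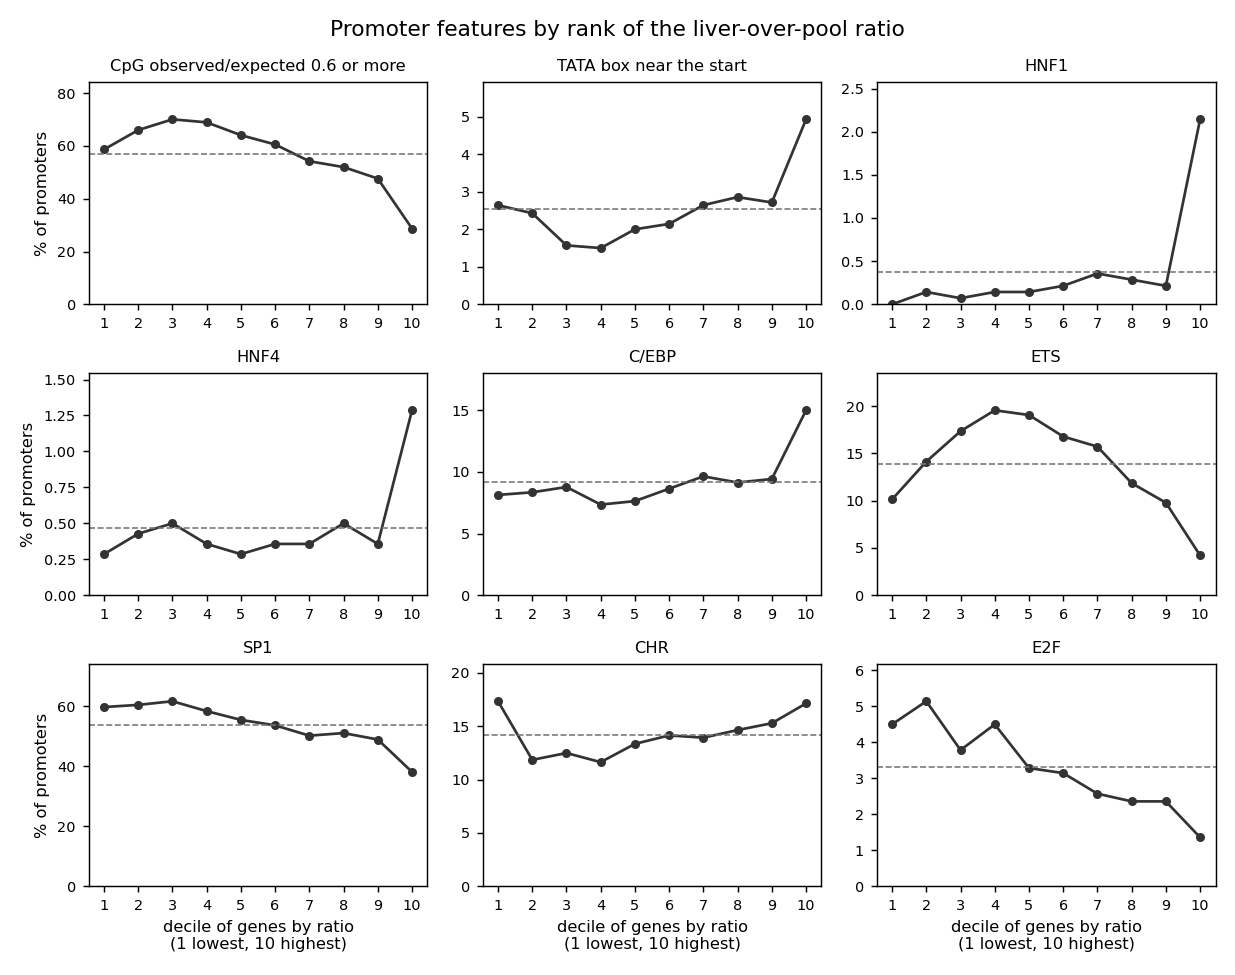
Share of promoters (%) with each of 9 sequence features in deciles of 14005 genes ordered by the mean log2 ratio of liver over the pool, from the lowest decile (1) to the highest (10), with a dashed line at the share of all matched promoters. The highest decile has the smallest share of CpG-rich promoters, 28.7%, and the largest share with the HNF1 letters, 2.14%.

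Within lists the motifs differed more. Of 57 promoters of cell cycle genes, 59.6% held CHR letters, as Ncapg does, and 68.4% NF-Y letters, against 14.2% and 38.6% of all promoters. CHR is an element known from genes of late cell cycle. The NF-Y share was also high in a list above the pool, at 73.3% of 15 promoters of hepatocyte markers, and it was 38.1% in the highest and 42.1% in the lowest decile. Of 51 promoters of replication genes 19.6% held E2F letters (GGCGGGAA), against 3.3% of all, and E2F factors are known to drive such genes.

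Of 15 acute phase promoters 53.3% held C/EBP letters and 26.7% those of a STAT element (TTCNNNGAA), against 9.21% and 7.4% of all. Some other lists of plasma proteins shared this. C/EBP letters stood in 66.7% of 6 serpin, 40% of 15 plasma carrier and 35% of 20 coagulation promoters, but in 8.33% of 12 apolipoprotein promoters. The STAT share was 23.5% of 17 complement and 20% of 20 coagulation promoters, 6.67% of plasma carriers and 0% of serpins and apolipoproteins. STAT letters stood in the 32 promoters of interferon-response genes at a share of 37.5%. HNF4 letters stood in 14% of 43 P450 promoters, against 0.471% of all, and other liver lists did not share this. The share was 4.76% of 21 bile acid promoters and 2.5% of 40 promoters of the urea cycle and amino acid breakdown. It was 0% of 15 promoters of hepatocyte markers, 15 of plasma carriers and 41 of conjugating enzymes. NF-Y letters stood in 94.1% of 17 promoters of cholesterol synthesis and 92.3% of 26 histone promoters, and ETS letters in 41.1% of 56 promoters of ribosomal proteins.

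Sex was the 1 labelled factor that differed among the 4 arrays. In the limma test of female minus male, 12 genes passed an adjusted p of 0.05, which is 0.0688% of the genes tested, 6 higher in females and 6 higher in males (0.0344% each). At an unadjusted p under 0.05 there were 1303 genes, or 7.47%. In simulated ratios of 17453 genes with 200 changed, the adjusted test recovered 0% of true differences of 1 and of 2 log2. Of true differences of 4 log2 it recovered 69.5%, so a gene that did not pass may still differ between the sexes. The simulated spreads were estimated from these 4 arrays and carry their own error, so the shares are only a rough guide to the real test. The count of 12 genes became 0 when exact zeros were kept as values and 5 when each gene was read by its spot of highest ratio. Without any 1 array it was also 0. Such a fit has 1 array of one sex, takes the spread from the other sex alone and keeps 1 residual degree of freedom. In these fits the 12 genes kept the sign of their difference, the sizes were 3.23 to 8.49 against 3.28 to 8.04 with all 4 arrays, and the adjusted p in limma was 0.0772 to 0.307.

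Sult3a1, a sulfotransferase, read 10.23 and 10.86 on the female arrays and 2.05 and 2.96 on the male arrays, and was higher in females by 8.04 ± 0.40 (adjusted p = 0.0145, limma). Hao2, a peroxisomal oxidase of hydroxy acids, read 8.70 and 9.63 on the female arrays and 1.09 and 2.00 on the male arrays (7.62 ± 0.46, female minus male). Sult2a2 and Sult2a4, sulfotransferases of steroids and bile acids, were higher in females by 5.59 ± 0.21 and 5.48 ± 0.27. Cux2, a transcription factor known from female mouse liver, read 5.45 and 5.90 on the female arrays and 0.21 and -0.05 on the male arrays, so its male arrays lay at the level of the pool. Xist, described above, read 2.11 and 1.52 on the female arrays and -4.32 and -4.36 on the male arrays, above the pool in both females and far below it in both males.

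Higher in males were 3 Y-linked genes, Eif2s3y, Uty and Kdm5d, whose female minus male differences were -6.71 ± 0.27, -4.54 ± 0.25 and -3.28 ± 0.21. Reg3b, a secreted lectin that kills bacteria, read 1.47 and 1.60 on the female arrays and 6.15 and 6.21 on the male arrays, a female minus male difference of -4.64 ± 0.21 (adjusted p = 0.0145, limma). Its neighbour in the family, Reg3g, read 2.92 and 2.40 on the female arrays and 6.91 and 6.81 on the male arrays (-4.20 ± 0.27, adjusted p = 0.0278, limma), and Reg3a 0.83 and 1.53 on the female arrays and 1.80 and 1.75 on the male arrays. Both Reg3b and Reg3g were thus above the pool in both sexes and further above it in males. Kcnk1, a potassium channel, read -0.91 and -1.04 on the female arrays and 3.39 and 3.19 on the male arrays.

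**Figure D5:**
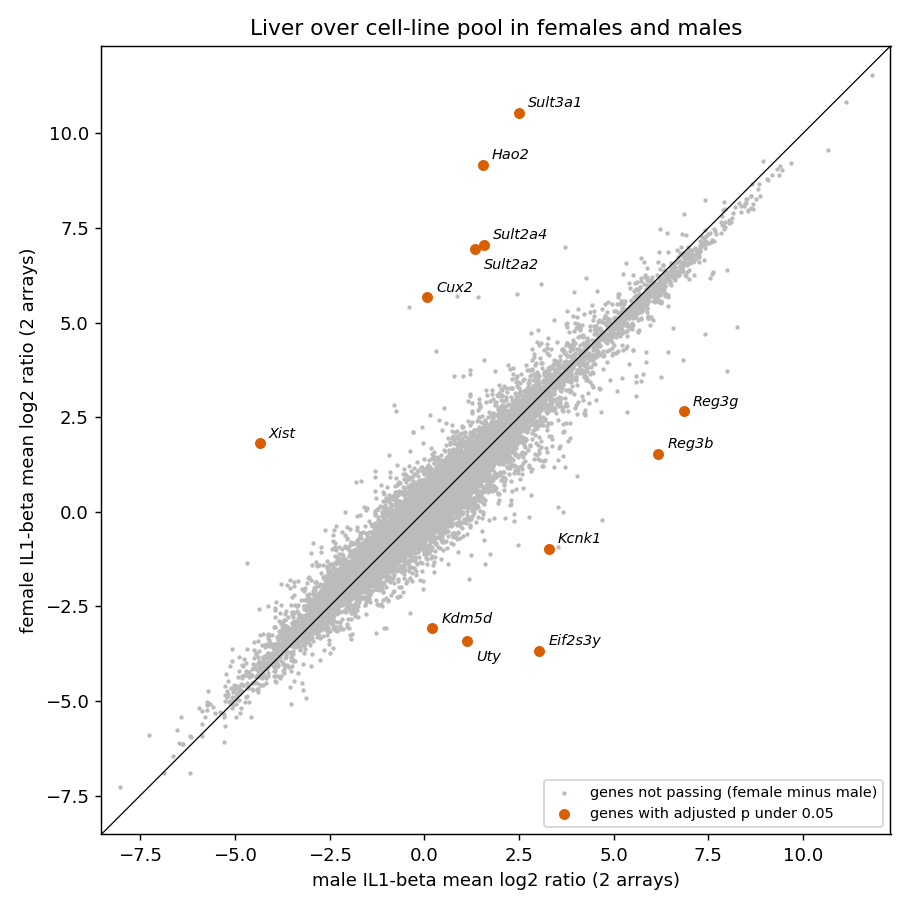
Mean log2 ratio of liver over the pool on the 2 female arrays (vertical) against the 2 male arrays (horizontal) for 17453 genes, with the line of equal values and the 12 genes that passed the limma test of female minus male in orange. Sult3a1 and Hao2 lie farthest above the line, and Eif2s3y farthest below it.

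By lists, the medians of the sexes did not overlap in 24 of the 58, and with 2 arrays on each side 36% of all genes did not overlap either. The widest gaps were those of fatty acid synthesis and NK cell genes given above. Class II presentation read 0.75 and 0.73 on the female arrays and 0.23 and 0.17 on the male arrays. No gene of these 3 lists passed the test of the sexes, and the medians carry no test.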

How the data were processed

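The values are the deposited log10 ratios of the liver channel (Cy5) over the channel of the reference RNA (Cy3), made with Agilent Feature Extraction per the labels. The base of the logarithm, taken as 10, and the background and dye correction are not stated in these sources. An exact 0 was treated as a missing value, which left out 4646 to 5115 of 45018 spots on each IL1-beta array. No counts underlie these ratios, so the number of arrays limits the precision.

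Ratios were multiplied by the base 2 logarithm of 10 to give log2 ratios. Spots were named through GEO's platform annotation, with symbols updated by Entrez ID in the RefSeq table (GRCm38.p6), which matched 33517 of the 33653 spots with 1 symbol. Of the other spots, 56 had several symbols and 11309 none. A gene is the mean of its spots measured on all 4 arrays, and 7531 of 17453 genes had more than 1. In 1342 of these the spots spanned more than 2 log2 units.

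A limma fit (version 3.58.1, R 4.3.3) of female and male means was tested for their average against 0 and for female minus male, with Benjamini-Hochberg adjustment over all genes at 0.05. The 4 arrays leave 2 residual degrees of freedom, and limma added 2.975 by sharing the spread between genes. The script was tested on simulated data.

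The arrays were taken by title and the 58 lists were written from textbook knowledge. The arrays, the lists and the tests were chosen with earlier results of these data known. Named by rule were the 15 highest and 15 lowest called genes and every gene called between the sexes. Each list gave its 4 most extreme members in the direction of its median, called or not, and the 2 most extreme called in the opposite direction. Any other gene named was chosen with its values seen. Replicate numbers were not treated as pairs, since deviations of arrays with the same number correlated at -0.347. Arrays of opposite number in the 2 sexes thus tended to deviate in the same direction. This variation across the sexes is part of the residual spread of the main fit, and its cause was not tested. Alternatives changed the centring, missing values, spot choice, model, block, threshold and arrays used. The arrays labelled control entered 1 alternative.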

Additional observations from a re-analysis of the deposited data

Results flagged for a closer look

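With 4 arrays, 1 array stood far from the other 3 in 19 of 352 values examined, by a rule that chance meets in about 1 of 20 groups of values. On the first female array, Crp read 7.87, Il1r2 5.45, Alas2 5.85, Itih4 3.75, Hnrnpa1 -1.95 and Mki67 -4.07. On the second female array Bank1 read 3.01. On the first male array Ctsg read 1.15. On the second male array Bub1 read -6.41, Cpt1c -2.44, Lrat 5.58 and Rbp4 8.44.

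List medians stood apart in the same way. The medians of P450 enzymes (5.25) and class I presentation (2.22) did so on the first female array. Those of macrophage markers (4.15), stellate cell markers (3.17) and tubulins (-1.73) did so on the second female array. Those of serpins (6.31) and of chaperonins (-0.29) did so on the second male array.

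The sexes differed in the limma test of female minus male by 8.04 for Sult3a1, 7.62 for Hao2, 6.15 for Xist, 5.59 each for Sult2a2 and Cux2, 5.48 for Sult2a4, -3.28 for Kdm5d, -4.20 for Reg3g, -4.26 for Kcnk1, -4.54 for Uty, -4.64 for Reg3b and -6.71 for Eif2s3y. In 3 further values the 2 females lay on one side of the pool and the 2 males on the other. These were Cd74 (female minus male 0.71, which did not pass), the proteasome median (-0.18) and the lysosome median (0.23), and the differences of the medians were not tested.

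Among spots without a gene symbol, which no comparison above uses, 323 read 3 or more and 199 read -3 or less on all 4 IL1-beta arrays. On the control arrays none of the 6239 such spots measured there did so.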

How the results depend on the processing

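The count of 13197 genes that differed from the pool moved by more than 1.5 times under 3 alternatives. Counting every spot gave 22118 of 30344 named spots (9523 higher, 12595 lower), a larger base than the 17453 genes behind the main count. A minimum of 2-fold gave a count of 8295 genes (3733 and 4562) and a minimum of 4-fold 3814 (2023 and 1791). Without 1 array it was 11617 to 12352. Centring gave 6564 higher and 6531 lower, and the spot of highest ratio 6766 and 5813. The 12 genes of female minus male became 0 with exact zeros kept, 5 with the spot of highest ratio, 25 with all 8 arrays in the fit and 22 at an adjusted p under 0.10. They were 0 without any 1 array, 0 with the replicate block and 0 with crossed numbers as the block, an alternative added after the data were seen. Each of these fits keeps 1 residual degree of freedom in place of 2, the differences of the 12 genes stayed 3.28 to 8.04 under both blocks, and their adjusted p in limma was 0.0636 to 0.25 and 0.071 to 0.171. Centring turned the medians of the proteasome (0.0854), endoplasmic reticulum (0.14), lysosome (0.0306) and germ cell (0.0844) lists above 0. The spot of highest ratio turned those of Wnt and Hedgehog (0.12), proteasome (0.0229), endoplasmic reticulum (0.27), lysosome (0.33) and germ cells (0.12), and the genes Esrra (0.16), Mcm4 (0.25) and Slc7a11 (0.94). The endoplasmic reticulum median ran from -0.1598 to 0.1157 without 1 array, at 0.1157 without the first female and 0.0663 without the second male array. Centring raised every value, since the array medians lay below 0, and the spot of highest ratio can only raise a gene's value. The cause of the other changes was not tested. Counted over all lists and alternatives, 503 other values of a list median lay within the spread between arrays and 66 moved further without a change of sign. With 2 arrays per sex, no dye swap and no channel signals analysed, the size of extreme ratios may be a bound set by background in 1 channel.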
